A study of Mus musculus with 6 samples.

Results

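The genes described here encode the nuclear-encoded subunits and assembly factors of mitochondrial complex I, and they were read in 6 RNA-seq libraries of mouse macrophages. They were chosen by name: every protein-coding gene of the deposited table whose symbol starts with Nduf, followed by a, b, c, s, v or af and a number. The rule found 45 of the table's 54532 genes, and it used no measured value. All libraries came from primary macrophages of wild-type (WT) mice that had met the yeast Candida albicans for 6 h. The 3 vehicle samples had been given vehicle beforehand, and the 3 rmMETRNL samples had been treated in vitro for 6 h with rmMETRNL, named for METRNL (meteorin-like), a secreted protein. The tissue the macrophages were taken from, the animals' age and sex, and whether each sample was its own mouse or culture, are not stated in the labels. The p-values therefore rest on the spread among these 6 samples alone, and that spread may be technical. Every direction below rests on reading the letter r in 3 of the column names as rmMETRNL.

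Complex I, NADH:ubiquinone oxidoreductase, is the entry point of the mitochondrial respiratory chain. Its matrix arm takes electrons from NADH in the N module and passes them along iron-sulphur clusters to ubiquinone in the Q module, and its membrane arm pumps protons. The core of the membrane arm is encoded by the mitochondrial genome, and all other subunits, together with the assembly factors that build the enzyme but do not stay in it, are encoded in the nucleus. Macrophages that meet microbes are known for turning from respiration towards glycolysis, and complex I for being a source of reactive oxygen species in such cells.

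The stretches of DNA at these genes' start sites are shown first, since promoter elements shared by respiratory genes are what could be looked for in genes read together. RefSeq promoter windows (GRCm38.p6, 250 bases before to 50 after the start site) matched 39 of the 45 genes by symbol. The letters AAGATGGC, which hold the core recognised by the transcription factor YY1, were found on either strand in 8 of the 39 genes (20.5%), in 5.97% of 6918 other genes tested and in 2.75% of all 32851 windows. All 8 matches were on the gene's own strand, between position 10 and position 38 counted from the start site as 0. They are shown as 30 bases each, with the match in capitals.

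Ndufa3 (chr7:3617384-3617413, + strand): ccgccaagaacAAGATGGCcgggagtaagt
Ndufa9 (chr6:126849097-126849126, - strand): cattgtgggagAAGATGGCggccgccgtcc
Ndufaf8 (chr11:120098933-120098962, + strand): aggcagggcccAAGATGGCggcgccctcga
Ndufb8 (chr19:44555393-44555422, - strand): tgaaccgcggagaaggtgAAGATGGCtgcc
Ndufc1 (chr3:51408915-51408944, - strand): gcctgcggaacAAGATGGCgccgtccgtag
Ndufs4 (chr13:114388045-114388074, - strand): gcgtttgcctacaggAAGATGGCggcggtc
Ndufs6 (chr13:73328433-73328462, - strand): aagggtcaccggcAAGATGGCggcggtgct
Ndufs7 (chr10:80249462-80249491, + strand): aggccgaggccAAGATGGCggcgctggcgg

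In 7 of these 8 genes the ATG inside the match is an annotated start codon in GENCODE M21, the exception being Ndufaf8, so the letters also spell the start of the protein. Over the 8 genes the median difference between groups on the log2(FPKM + 1) scale was -0.08, against -0.16 over the 29 other matched and tested genes. The NRF1 letters GCGCATGC were found in 5 of the 39 genes (12.8%, against 6.43% of other genes tested and 2.71% of all windows), the ETS letters CCGGAAG in 6 (15.4%, against 22.6% and 8.86%) and the ERR letters TCAAGGTC in 2 (5.13%, against 0.853% and 1.05%). Genes with these letters also had less negative medians than the rest: -0.04 against -0.14 for NRF1, -0.09 against -0.14 for ETS and -0.08 against -0.135 for ERR. None of these contrasts, nor that for YY1, was tested. Both strands were searched, and the NRF1 letters overlap their own reverse complement, so 1 stretch can match on both strands. A match describes the letters and not a bound site.

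Upstream sequence is shown for 3 genes whose rmMETRNL values all lay below the vehicle values, 1 from each of 3 regions of the enzyme, chosen after their values were seen, each from position -250 to position -1. Ndufa8 holds the NRF1 letters on the opposite strand at position -8, Ndufb7 the ETS letters at position -20, and Ndufv1 none of the 4 sets, which says only that those letters are not in its window. Capitals mark the matches.

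Ndufv1 (chr19:4012756-4013005, - strand): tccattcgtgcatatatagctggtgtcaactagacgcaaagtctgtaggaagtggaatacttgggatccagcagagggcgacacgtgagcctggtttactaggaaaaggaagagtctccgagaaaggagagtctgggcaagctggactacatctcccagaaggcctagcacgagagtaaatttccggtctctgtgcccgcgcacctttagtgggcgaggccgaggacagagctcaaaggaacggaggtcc
Ndufa8 (chr2:36049339-36049588, - strand): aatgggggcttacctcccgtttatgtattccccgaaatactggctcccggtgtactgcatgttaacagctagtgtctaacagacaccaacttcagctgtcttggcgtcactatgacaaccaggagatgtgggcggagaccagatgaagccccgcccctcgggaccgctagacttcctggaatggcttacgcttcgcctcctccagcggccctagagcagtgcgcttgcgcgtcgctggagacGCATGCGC
Ndufb7 (chr8:83566508-83566757, + strand): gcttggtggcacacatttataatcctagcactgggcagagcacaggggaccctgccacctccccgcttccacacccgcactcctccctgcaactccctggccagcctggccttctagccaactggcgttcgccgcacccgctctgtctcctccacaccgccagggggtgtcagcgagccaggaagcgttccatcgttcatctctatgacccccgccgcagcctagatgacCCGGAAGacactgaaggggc

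Values are FPKM (fragments per kilobase of gene, scaled to library size), so levels of different genes can be set side by side per length. The 45 genes ranged over 395-fold in mean level, around a median of 12.7 FPKM. Ndufa2, an accessory subunit of the N module with a thioredoxin-like fold, was the most abundant, at 129, 149 and 128 FPKM in vehicle libraries 1 to 3 and 135, 126 and 98.7 FPKM in rmMETRNL libraries 1 to 3, and its groups overlapped. It was followed by Ndufa1 (122 ± 21.6 FPKM with vehicle and 112 ± 12.9 FPKM with rmMETRNL, mean ± SD, n = 3, as for all such values below) and by the core subunit gene Ndufs8. The 8 assembly factors were among the lowest, with vehicle means of 1.00 to 6.01 FPKM, while the 7 core subunits lay between 3.99 and 49.5 FPKM. These levels rest on the deposited gene lengths, which are large for Ndufb2 (5628 bases) and Ndufs1 (8086 bases).

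**Figure D1:**
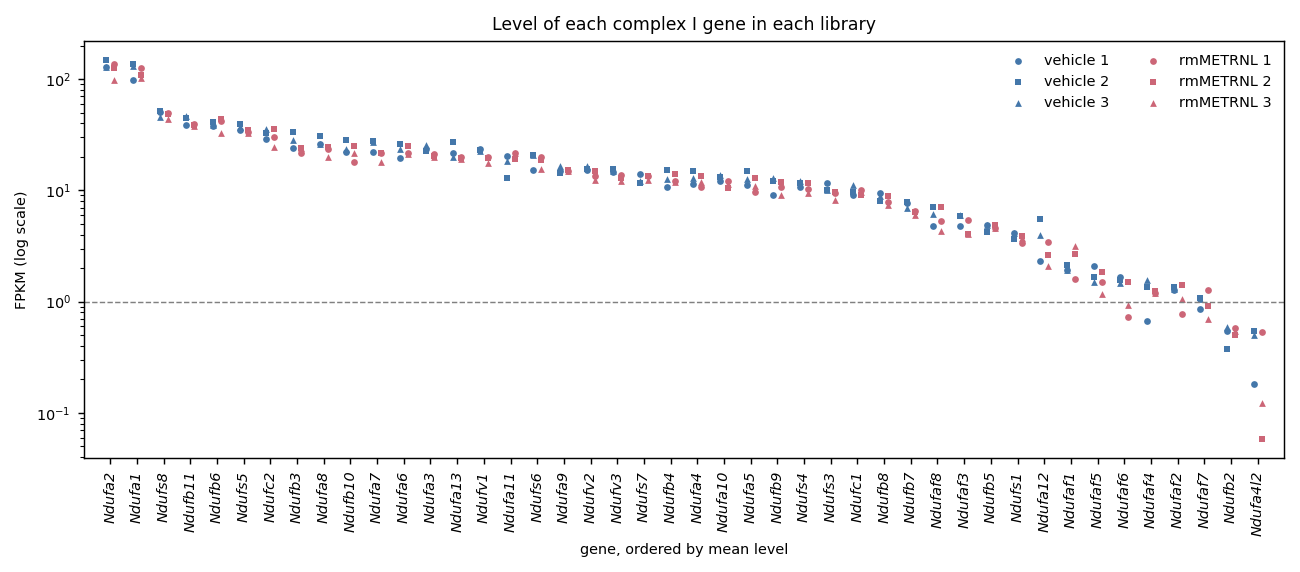
FPKM on a log axis for 44 of the 45 genes, ordered by mean level, with 1 point per library (blue vehicle, red rmMETRNL; circle, square and triangle for libraries 1, 2 and 3). Ndufa2 and Ndufa1 stand near 100 FPKM or above, and Ndufaf7, Ndufb2 and Ndufa4l2 have means below the dashed line, the 1 FPKM needed for the test.

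Of the 45 genes, 42 averaged 1 FPKM or more across libraries and entered the test. The 3 others were Ndufaf7, which encodes a methyltransferase (1.00 ± 0.116 and 0.957 ± 0.290 FPKM), Ndufb2 (0.499 ± 0.112 and 0.540 ± 0.0424 FPKM) and Ndufa4l2, a HIF-1 target and paralogue of Ndufa4. Ndufa4l2 was the lowest of all, at 0.181, 0.547 and 0.501 FPKM with vehicle and 0.529, 0.0582 and 0.123 FPKM with rmMETRNL. These values stand for 1 to 10 reads per library, and the groups overlapped.

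As a set, complex I genes had a slightly negative median difference with rmMETRNL, and no gene of the set passed the test. Genes of 1 library are not independent, so the counts below describe the set and do not test it. Averaged over the 42 genes, vehicle library 1 (-0.09) lay below rmMETRNL library 2 (-0.04), so the groups overlapped in this mean. Limma on log2(FPKM + 1), adjusted over all 9867 genes tested, called 0 of the 42 at an adjusted p of 0.05 (background 0.0% of genes, lowest adjusted p among the 42 = 0.199), and limma voom, run on read numbers worked back from FPKM, also called 0 of the 42 (background 0.618%, lowest adjusted p = 0.0867). Of the 42, 37 had a negative difference (88.1%, background 51.6%) and 5 a positive one, with a median of -0.13 (0.912-fold) against -0.01 over all genes tested. In 10 the 3 rmMETRNL values lay wholly below the 3 vehicle values (23.8%, background 10.6%), and in 0 wholly above (background 10.9%). An unadjusted p under 0.05 in limma was reached by 9 genes, all 9 lower (21.4%, background 7.13%), and by 0 higher (background 7.54%). That count of 9 was 3 without rmMETRNL library 3 (background 4.63%) and 3 without vehicle library 2 (background 5.51%). An exact permutation test of 1 gene cannot go below p = 0.1 with 3 against 3. Without a filter on low values, 39 of the 45 had a negative difference (background 49.0%).

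**Figure D2:**
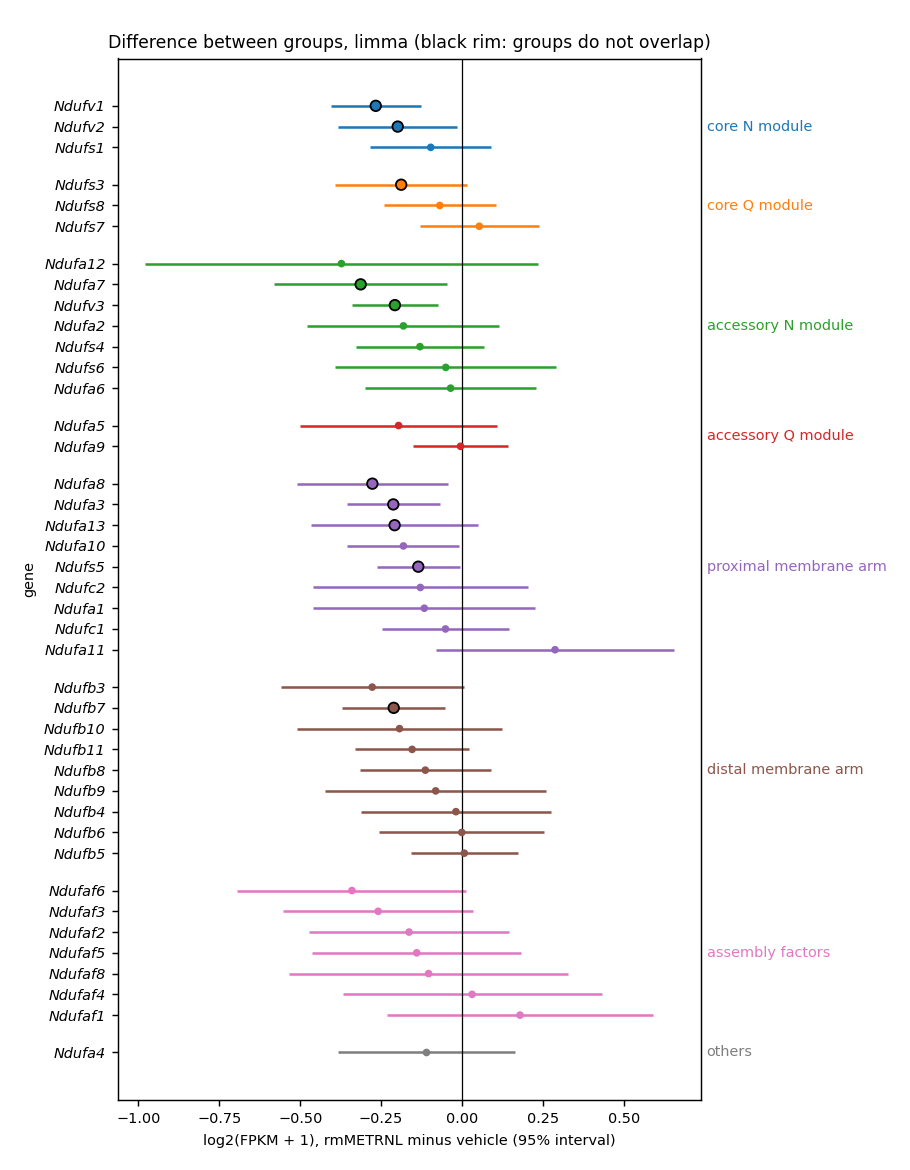
Difference between groups on the log2(FPKM + 1) scale, rmMETRNL minus vehicle, for 41 of the 42 genes tested, with the 95% interval from limma as a line and genes grouped by their place in complex I. Of the 41 points, 36 lie left of 0, and the 10 with a black rim, whose groups do not overlap, all lie left of it.

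The electron-accepting end of the enzyme is the core N module. Ndufv1, whose protein binds NADH and the flavin (ENSMUSG00000037916, chromosome 19, 4007497 to 4012806, GRCm38), stood at 23.4, 23.2 and 22.6 FPKM with vehicle and 19.8, 19.7 and 17.6 FPKM with rmMETRNL. The vehicle libraries were nearly level, and every rmMETRNL library was below them. This gave the smallest p of the set, with a log2 difference of -0.27 (SE 0.06, 95% interval -0.41 to -0.13, unadjusted p = 0.00285 and adjusted p = 0.199 in limma). No exon base of Ndufv1 is shared with another annotated gene, nor any 31-base word of its exons. Ndufv2, which carries an iron-sulphur cluster beside it, had 15.3, 15.6 and 16.4 FPKM with vehicle and 13.6, 15.1 and 12.3 FPKM with rmMETRNL. Its groups did not overlap, though rmMETRNL library 2 came close to the lowest vehicle library (difference -0.20, SE 0.08, adjusted p = 0.321 in limma). Ndufs1, the largest core subunit, had 4.15, 3.65 and 4.18 FPKM with vehicle and 3.34, 3.91 and 3.75 FPKM with rmMETRNL, with groups that overlapped (difference -0.10, SE 0.08).

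The core Q module passes the electrons on to ubiquinone, and 3 of its genes are given here. Ndufs8, which carries iron-sulphur clusters, had 50.8, 52.1 and 45.6 FPKM with vehicle and 49.6, 48.2 and 43.6 FPKM with rmMETRNL (difference -0.07, SE 0.07). Its lowest library was rmMETRNL 3, and the groups overlapped. Ndufs7, which holds the last cluster before ubiquinone, was the 1 nuclear core gene with a positive difference, at 13.9, 11.5 and 12.2 FPKM with vehicle and 13.4, 13.5 and 12.3 FPKM with rmMETRNL (0.05, SE 0.08). Ndufs3 had 11.7, 9.996 and 9.98 FPKM with vehicle and 9.54, 9.62 and 8.27 FPKM with rmMETRNL, so its groups did not overlap (difference -0.19, SE 0.09, adjusted p = 0.369 in limma). Its value is uncertain, as 55.0% of its 31-base words are found elsewhere in the annotation, chiefly in Gm12251.

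All 7 accessory genes of the N module had a negative difference (background 51.6%), with a median of -0.18. Ndufa7 (chromosome 17, 33824591 to 33838316) had 22.1, 27.8 and 27.2 FPKM with vehicle and 21.8, 21.8 and 17.9 FPKM with rmMETRNL. Vehicle library 1 lay close to rmMETRNL libraries 1 and 2, and the groups did not overlap (difference -0.31, SE 0.11, adjusted p = 0.2998 in limma). Ndufv3 (chromosome 17, 31520115 to 31531326), whose protein sits beside the NADH-binding subunits, had 14.7, 15.4 and 14.8 FPKM with vehicle and 13.6, 12.8 and 12.2 FPKM with rmMETRNL. It had the second smallest p of the set, with narrow groups well apart (difference -0.21, SE 0.06, adjusted p = 0.238 in limma). Ndufa12, which takes the place of the assembly factor Ndufaf2 in the finished enzyme, had a difference of -0.37, the most negative of the set on the log2(FPKM + 1) scale though not under voom (-0.46, against -0.62 for Ndufaf6), with an interval of -0.98 to 0.24, from 3.95 ± 1.63 and 2.72 ± 0.652 FPKM. Ndufs4, Ndufs6, Ndufa6 and Ndufa2 had differences of -0.13, -0.05, -0.04 and -0.18, all with overlapping groups. Without rmMETRNL library 3 these were -0.07, 0.05, 0.01 and -0.05, so that Ndufs6 and Ndufa6 changed sign. The 2 accessory genes of the Q module also overlapped: Ndufa5 had 13.0 ± 1.86 and 11.2 ± 1.63 FPKM, and Ndufa9, a member of the short-chain dehydrogenase family, 15.2 ± 1.10 and 15.1 ± 0.254 FPKM.

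In the proximal membrane arm, next to the matrix arm, 8 of 9 genes had a negative difference (background 51.6%). In 4 the groups did not overlap, all lower with rmMETRNL (background 10.6%). Ndufa3 (chromosome 7, 3617373 to 3620327) had 23.4, 22.6 and 25.7 FPKM with vehicle and 21.1, 20.5 and 19.8 FPKM with rmMETRNL (difference -0.21, SE 0.06, adjusted p = 0.244 in limma). Ndufa8 (chromosome 2, 36036326 to 36049406), one of the subunits held by disulphide bonds on the intermembrane side, had 25.9, 30.7 and 26.3 FPKM with vehicle and 23.6, 24.4 and 19.9 FPKM with rmMETRNL (difference -0.28, SE 0.10). In both genes every rmMETRNL library was below every vehicle library, with rmMETRNL 3 lowest. Ndufs5, also of the intermembrane side, had 35.1, 39.1 and 37.1 FPKM with vehicle and 33.7, 34.7 and 32.7 FPKM with rmMETRNL (difference -0.13, SE 0.05), and shares 36.0% of its 31-base words, chiefly with BC002163. Ndufa10 had 12.0, 13.2 and 13.8 FPKM with vehicle and 12.1, 10.6 and 11.3 FPKM with rmMETRNL, so that rmMETRNL library 1 just overlapped the vehicle range (difference -0.18, SE 0.07).

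Ndufa13, also known as Grim19, averaged 23.0 ± 3.84 FPKM in the vehicle group and 19.6 ± 0.415 FPKM in the rmMETRNL group, with values that did not overlap. It is uncertain, because 29.98% of its exon bases are shared with another gene, chiefly Tssk6 on the other strand. Ndufa11 stood apart from the rest of the set with the most positive difference (0.29, SE 0.15, adjusted p = 0.444 in limma), from 17.1 ± 3.78 and 20.8 ± 1.47 FPKM. Vehicle library 2, at 12.9 FPKM, was its lowest, and the groups overlapped. Ndufa1, Ndufc1 and Ndufc2 had differences of -0.12, -0.05 and -0.13 with overlapping groups. Without rmMETRNL library 3, that of Ndufa1 was -0.05 and that of Ndufc2 changed sign, to 0.0064.

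The distal membrane arm is made of the Ndufb proteins around the mitochondrially encoded proton pumps ND4 and ND5. Of its 9 tested genes 8 had a negative difference (88.9%, background 51.6%), with a median of -0.11. Only 1 had groups that did not overlap, lower with rmMETRNL (background 10.6%). This was Ndufb7 (chromosome 8, 83566671 to 83571626), a subunit of the intermembrane side, with 7.68, 7.86 and 6.87 FPKM with vehicle and 6.54, 6.40 and 5.99 FPKM with rmMETRNL (difference -0.21, SE 0.07, adjusted p = 0.273 in limma). Ndufb3 had 23.9, 33.5 and 28.4 FPKM with vehicle and 21.7, 24.1 and 23.9 FPKM with rmMETRNL, so that the lowest vehicle library lay among the rmMETRNL libraries (difference -0.28, SE 0.12). Ndufb10 and Ndufb11 had differences of -0.19 and -0.15, and Ndufb8 and Ndufb9 of -0.11 and -0.08. Ndufb4, Ndufb5 and Ndufb6 lay within 0.02 of 0, with intervals of -0.31 to 0.27, -0.16 to 0.17 and -0.26 to 0.25, so differences of that size in either direction are not excluded for them. Ndufb6 shares 39.0% of its exon bases with another gene on the other strand, Smim27.

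Assembly factors were low and variable, with 5 of 7 tested genes negative (background 51.6%). None had groups that did not overlap (0 of 7, background 10.6% lower and 10.9% higher). Ndufaf6 had 1.66, 1.57 and 1.47 FPKM with vehicle and 0.729, 1.496 and 0.928 FPKM with rmMETRNL, which stand for 14 to 33 reads per library. In this gene 2 rmMETRNL libraries were well below the vehicle range and the other was inside it (difference -0.34, SE 0.15, adjusted p = 0.354 in limma). At so low a level the size depends on the scale: it was -0.59 with a pseudocount of 0.1, -0.63 with one of 0.01 and -0.62 by voom, with adjusted p from 0.361 to 0.406. Ndufaf3, which with Ndufaf4 helps to build the Q module, had 4.80, 5.89 and 6.05 FPKM with vehicle and 5.42, 4.07 and 4.05 FPKM with rmMETRNL (difference -0.26, SE 0.12). Ndufaf1, part of the complex that assembles the membrane arm, had a positive difference (0.18, SE 0.17) that was 0.04 without rmMETRNL library 3. Ndufaf4 had 1.20 ± 0.464 and 1.21 ± 0.0255 FPKM, Ndufaf5 1.76 ± 0.309 and 1.51 ± 0.342 FPKM, and Ndufaf8, the partner of Ndufaf5, 6.01 ± 1.13 and 5.57 ± 1.43 FPKM. Ndufaf2 had 1.32 ± 0.0362 and 1.08 ± 0.318 FPKM and shares 65.6% of its exon bases with other genes, chiefly B230220B15Rik on the other strand. Ndufa4, matched by its name but now counted as a subunit of complex IV, had 13.1 ± 1.82 and 12.1 ± 1.37 FPKM.

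**Figure D3:**
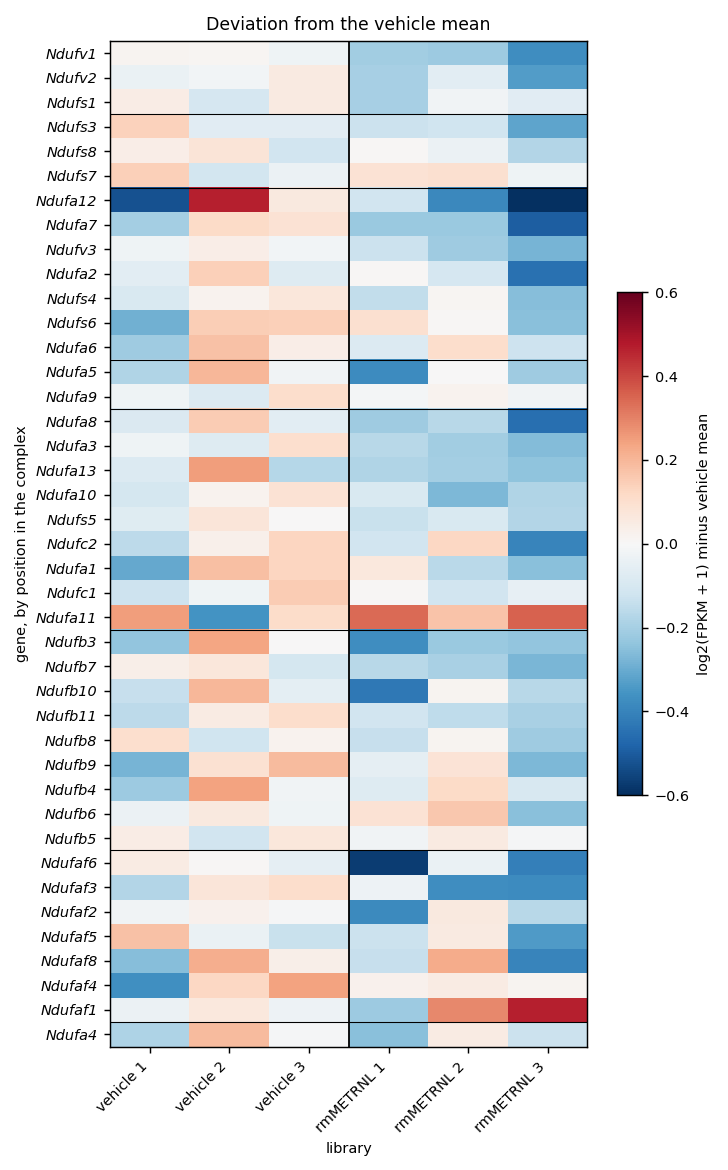
Log2(FPKM + 1) of 41 of the 42 tested genes in each library minus that gene's mean over the 3 vehicle libraries, with genes as rows grouped by place in the complex (core N, core Q, accessory N, accessory Q, proximal membrane, distal membrane, assembly factors, Ndufa4) and colours saturating at 0.6 in either direction. The column of rmMETRNL 3 is the bluest and holds the lowest value of 21 of these 41 genes, while vehicle 2 holds the highest value of 17. The shares over all genes tested were not worked out, so these counts describe the plot only.

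The libraries of a group were not alike. Averaged over the 42 genes, deviations from the vehicle mean were -0.09, 0.06 and 0.03 in vehicle libraries 1 to 3 and -0.12, -0.04 and -0.21 in rmMETRNL libraries 1 to 3. So vehicle library 1 lay below rmMETRNL library 2, and the groups overlapped in this mean. In reads, which need no gene length, the 45 genes together took 11.1, 12.2 and 11.8 of every 10000 reads with vehicle and 10.9, 10.99 and 9.80 with rmMETRNL, with no overlap. Within groups the median coefficient of variation of the 42 genes was 9.57% with vehicle and 9.12% with rmMETRNL, against 7.49% and 7.76% over all genes tested. Of the 42 genes, 28 were below every vehicle library in rmMETRNL 3, 20 in rmMETRNL 1 and 13 in rmMETRNL 2. The shares over all genes tested were not worked out for these counts, so they are not a result about complex I genes. Other tested genes under 1500 bases also had a negative mean deviation in rmMETRNL 3 (-0.11, n = 1782).

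**Figure D4:**
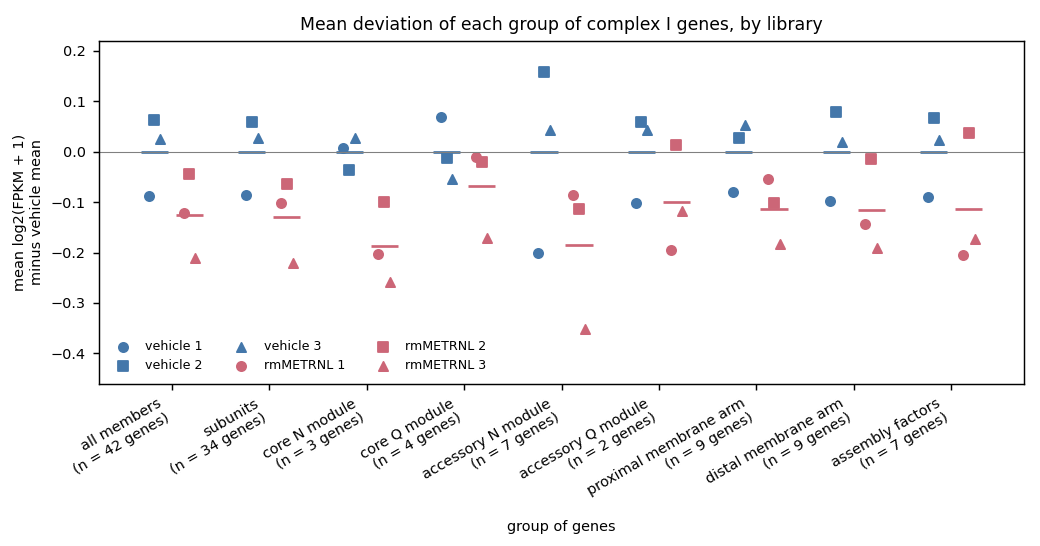
Mean over the tested genes of each group of log2(FPKM + 1) minus the gene's vehicle mean, 1 point per library (symbols as in the legend) with the group mean as a bar. In the core N module the 3 rmMETRNL libraries (-0.20, -0.10 and -0.26) lie below the 3 vehicle libraries (0.01, -0.04 and 0.03), whereas over all 42 genes vehicle 1 lies among the rmMETRNL libraries.

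How many genes stood lower depended on which libraries were read. Without rmMETRNL library 3 the median difference was -0.07 and 29 of 43 tested genes were negative (67.4%, background 51.7%), and 10 were wholly lower (23.3%, background 15.0%). These were the same 10 genes as with all libraries. A gene wholly lower with all libraries stays so when a library is left out, so keeping them was fixed in advance. No gene joined them, while the background rose from 10.6% to 15.0%. Without vehicle library 1 the median was -0.19 and 21 of 43 genes were wholly lower (background 16.6%), and without rmMETRNL library 2 it was -0.20 with 17 of 42 (background 15.7%). With fewer libraries more genes of any kind have groups that do not overlap, so these counts are to be read against their own background and not against that of 10.6% with all libraries. Without rmMETRNL library 3, 8 complex I genes with a negative difference turned positive, namely Ndufa6, Ndufs6, Ndufa9, Ndufc2, Ndufb4, Ndufb6, Ndufb9 and Ndufaf8, and 0 turned the other way. The 10 genes, wholly lower with all libraries, were Ndufv1, Ndufv2, Ndufs3, Ndufa7, Ndufv3, Ndufa3, Ndufa8, Ndufa13, Ndufs5 and Ndufb7, and without rmMETRNL library 3 the difference of Ndufv1 was -0.21, of Ndufv3 -0.17 and of Ndufa3 -0.19.

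The tested complex I genes are short, with a median length of 1535 bases against 3766 over all genes tested. Across the 9867 genes, the deviation of rmMETRNL library 3 from the mean of all libraries was more positive in longer genes (Spearman's rho 0.313), while rho was -0.168 to -0.0212 in the other 5 libraries. Genes of 1 sample are not independent, and rho is given as a description. Other tested genes under 1500 bases had a median difference of -0.06 (n = 1782), and other genes of 1500 bases or more had 0.00 (n = 8043). Among complex I genes the medians were -0.13 (n = 20) and -0.13 (n = 22), and the part of length in the difference was not tested beyond the fit that follows. With each library's trend with length removed, the complex I median was -0.11, 35 of 42 genes were negative (background 52.5%), and 9 were wholly lower (background 10.8%), all of the 10 except Ndufa13. Of the 42 genes, 27 share at most 10% of their exon bases and of their 31-base words with any other gene. Their median was -0.13, with 24 negative (88.9%, background 51.6%) and 7 wholly lower (background 10.6%).

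**Figure D5:**
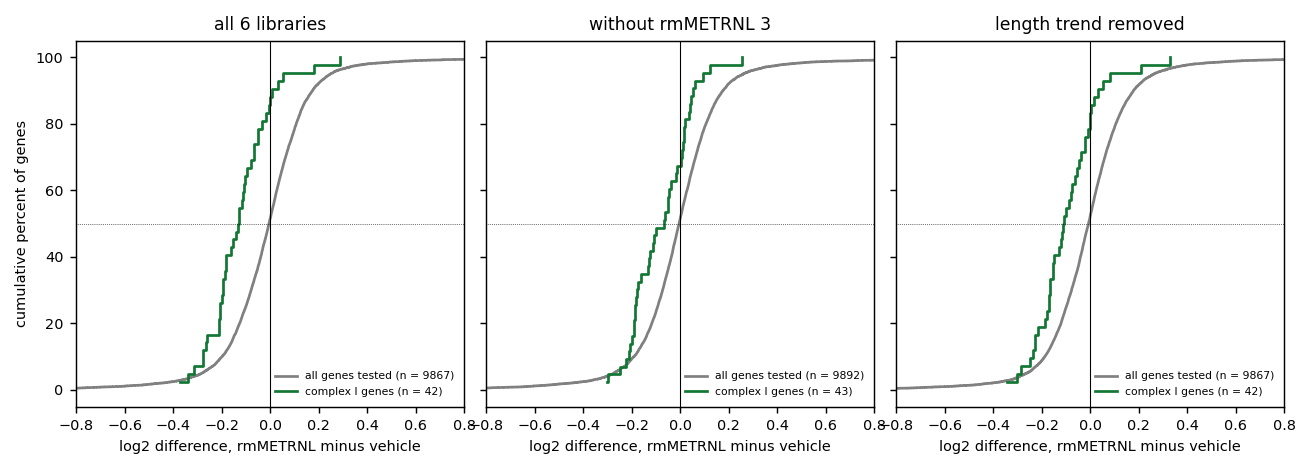
Cumulative percent of genes by log2 difference, rmMETRNL minus vehicle, for all genes tested (grey) and complex I genes (green), with all 6 libraries, without rmMETRNL library 3, and with each library's trend with gene length removed. The green curve crosses 50% at -0.13, -0.07 and -0.11 in the 3 panels, left of the grey curve in each.

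The mitochondrial genome encodes the core of the membrane arm. Of its 7 ND genes, 6 had a positive difference and 1, mt-Nd1, a negative one (-0.04, SE 0.07). None passed (0 of 7 by limma and 0 by voom), and 1, mt-Nd4l, had an unadjusted p under 0.05 in limma (higher, background 7.54%). By voom the unadjusted p was 0.119 for mt-Nd4l, 0.0365 for mt-Nd3 and 0.0147 for mt-Nd6. Whether the ND genes differ from the nuclear genes in direction was not tested. The gene mt-Nd6 had 537, 544 and 664 FPKM with vehicle and 607, 728 and 725 FPKM with rmMETRNL, with groups that overlapped (difference 0.24, SE 0.11, adjusted p = 0.362 in limma). The differences of mt-Nd2, mt-Nd4 and mt-Nd5 were 0.08, 0.21 and 0.10. The genes mt-Nd3 and mt-Nd4l rest on 19 to 89 and 22 to 42 reads per library. Of the ND genes, mt-Nd3 was the 1 whose groups did not overlap (higher with rmMETRNL, background 10.9%). The nuclear acyl carrier protein gene Ndufab1, a subunit outside the naming rule, had 2.38 ± 0.187 and 2.13 ± 0.278 FPKM.

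Other genes of the pathway were read from lists chosen by function. Of 11 tested assembly genes outside the Nduf family, 5 were negative (background 51.6%) and 6 positive, and 0 passed by limma or voom. In limma 2 had an unadjusted p under 0.05, both lower (background 7.13%). These were Dmac1, a factor of distal membrane arm assembly (18.9 ± 0.311 and 16.2 ± 1.20 FPKM), and Tmem126a (13.2 ± 0.695 and 11.6 ± 0.758 FPKM). Of 7 tested regulators of mitochondrial biogenesis, 5 were positive, 0 passed by limma or voom, and 0 had an unadjusted p under 0.05. Yy1 had 26.7 ± 1.84 and 29.6 ± 1.34 FPKM, Nrf1 4.004 ± 0.372 and 4.14 ± 0.236 FPKM, and Esrra 23.3 ± 2.29 and 23.4 ± 2.18 FPKM, while Ppargc1a was at or under 0.0227 FPKM in every library. Of 4 hypoxia and mitophagy genes 0 passed by limma or voom, and 2, Bnip3 and Bnip3l, had an unadjusted p under 0.05 in limma. Both were wholly higher with rmMETRNL (background 10.9%). Bnip3, which marks mitochondria for removal, had 107 ± 9.81 and 131 ± 11.4 FPKM, and Bnip3l 61.1 ± 0.465 and 65.8 ± 2.59 FPKM.

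The libraries hold 13235001 to 18145733 reads or read pairs, of which the 45 genes took 14572 to 21384. All 8 macrophage identity genes passed the filter, and their summed level was 9613 to 10159 FPKM with vehicle and 9381 to 9667 FPKM with rmMETRNL, most of it Lyz2 and Cd14. Limma called 0 of the 8 and voom 1, Cd14, a receptor for bacterial lipopolysaccharide (2647 and 2298 FPKM, difference -0.21 and adjusted p = 0.0468 by voom). Of the 8, 3 were wholly lower with rmMETRNL (Cd14, Cd68 and Mertk, background 10.6%) and 2 wholly higher (Adgre1 and Csf1r, background 10.9%). Summed neutrophil markers were 113 to 119 and 123 to 131 FPKM, carried mostly by S100a8 and S100a9, which macrophages also express, with Ly6g, Camp, Ltf and Mpo under 1 FPKM. Retnlg, also on this list, averaged 6.58 FPKM with vehicle and 6.49 FPKM with rmMETRNL. S100a8 was nearly level (means of 83.7 and 86.1 FPKM). S100a9 was wholly higher with rmMETRNL (24.4 and 34.8 FPKM, adjusted p = 0.151 in limma and 0.0579 by voom). Summed B cell markers were 5.07 to 6.03 and 6.05 to 6.57 FPKM, T and NK cell markers 0.7702 to 1.19 and 0.913 to 1.06, mast cell markers 10.4 to 16.8 and 13.3 to 17.0, dendritic cell markers 1.37 to 1.65 and 1.57 to 1.77, and fibroblast and mesothelial markers 7.77 to 8.46 and 7.67 to 8.30. Retina markers, checked because the labels' extraction text speaks of retinas, summed to 0.446 to 0.591 and 0.623 to 0.855 FPKM, with 2 of 8 at 0 in every library. The part of other cells in the complex I values was not tested. In bulk RNA, fewer cells of a type and less RNA per cell cannot be told apart.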

How the data were processed

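RNA-seq was measured in 3 vehicle and 3 rmMETRNL samples. The authors deposited 1 table of FPKM values per gene, with lengths, per the file headers. Per the submitters' processing notes the genome is GRCm38 (mm10). For aligner, counter, annotation and strand setting: not given in the sources used here. Where genes overlap on opposite strands, their reads may be mixed. FPKM times length came in even steps within each library, so whole reads could be worked out for 100.0% of values (within 0.05 reads). Genes averaging 1 FPKM or more were tested with limma 3.58.1 (R 4.3.3, with a trend in the prior variance) on two-sided log2(FPKM + 1) differences, Benjamini-Hochberg over all 9867 genes, threshold 0.05. Fold changes on this scale understate low genes. On simulated data made for this comparison (9757 genes) limma called 14.3% of genes changed 1.25-fold, 51.0% at 1.5-fold, 76.6% at 2-fold and 97.8% at 4-fold. Each share rests on only 46 to 49 changed genes. Changes smaller than 1.25-fold, and a trend with gene length, were not simulated.

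Genes named with values in each library are the core subunits (1 of the 7 is not reported here by itself or in plots by gene, and is kept in the counts over the set), the 10 others with the smallest p, and the highest and lowest genes. The members, lists and tests were chosen with earlier results of these data known. Overlap and 31-base words come from GENCODE M21, whose start and end matched for 41 of the 45 genes. Replicate numbers did not pair the samples.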

Additional observations from a re-analysis of the deposited data

How the results depend on the processing

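Of the 20 other settings, 16 change the differences or the genes that enter, and the median of the complex I genes was negative in these 16. Testing with no filter or with a minimum mean of 5 FPKM changes only which genes enter, and leaves each gene's difference as it was. None of the 20 called a complex I gene (0 calls). Over all genes tested, 5 were called with no filter, 1 after rescaling to TPM and 61 by voom, against 0 in limma with all libraries at the settings used (1448 at an unadjusted p under 0.05). Leaving out each library in turn gave 10 to 21 wholly lower complex I genes (background 15.0% to 16.9%) and 0 to 2 wholly higher ones (background 14.5% to 17.0%), with medians of -0.20 to -0.07. The 10 genes wholly lower with all libraries stay so when a library is left out, so the lower count could not fall below 10. The difference of Ndufs7 ranged from -4.61e-04 (without vehicle library 2) to 0.12 and that of Ndufs8 reached 0.0043 without rmMETRNL library 3 and with the length trend removed, a setting chosen after seeing the data. The cause was not tested. With the replicate number as a block, 0 complex I genes were called (lowest adjusted p = 0.298 in limma). In this balanced design the block cannot move a difference, so the median of -0.13 is fixed. Same-numbered samples had correlations of -0.0212, 0.00740 and -0.0454 over genes, so the numbers are not taken to pair them. Few reads lie behind Ndufa4l2 (1 to 10 per library), Ndufb2 (28 to 60) and 7 of the 8 assembly factors (14 to 111).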
